A study of Bos taurus with 46 samples.

Results

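The 10 genes *FOXP3*, *IL2RA*, *CTLA4*, *IL10*, *TGFB1*, *IDO1*, *PDCD1*, *CD274*, *HAVCR2* and *LAG3* were followed in leukocytes of pregnant heifers. They were chosen by symbol from the NCBI gene count table, which holds 30675 genes, and all 10 symbols were present. Regulatory T cells hold back other T cells, and the transcription factor *FOXP3* defines them. They carry the high-affinity interleukin-2 receptor chain encoded by *IL2RA* and the receptor *CTLA4*, which competes with *CD28* for ligands on antigen-presenting cells. Other brakes on T cells are the cytokines IL-10 and TGF-beta, the tryptophan-degrading enzyme *IDO1* and the inhibitory receptors PD-1 (*PDCD1*), TIM-3 (*HAVCR2*) and LAG-3 (*LAG3*), together with the PD-1 ligand PD-L1 (*CD274*). In pregnancy, such brakes are known for their part in the tolerance of the mother to the fetus, which carries paternal antigens.

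Blood was drawn from 23 Angus crossbred heifers on D55 and again on D105 of gestation, and RNA of the leukocytes was sequenced, with 1 library per heifer and day (46 libraries). Of these, 8 heifers conceived by artificial insemination (AI, the control), and 15 received embryos made in vitro (IVP), transferred in pairs. Embryos made in vitro were fertilized with semen of a single Brahman bull. The IVP heifers were divided by the weight of the fetus on D105 into 6 IVP-Normal and 9 IVP-LOS heifers, LOS being large offspring syndrome, a fetal overgrowth. Heifers 604 and 664, both IVP-LOS, carried the largest fetuses, and the study set them against the other 21 heifers. The study also saw them separate in a clustering of these libraries, so this pair was not chosen independently of the expression data. Per the paper's supplement, every AI heifer carried 1 fetus, while some IVP-Normal and some IVP-LOS heifers carried twins. Of the pair, 604 carried twins and 664 carried 1 fetus. The number of fetuses was not a term in any fit, and its part was not tested. No group was without a pregnancy, so no level could be set against a nonpregnant state.

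Between 18692653 and 24502012 reads per library fell on genes (median 22934799.5). The library labels name a set BACKUP, which holds the D105 libraries from AI and IVP-LOS heifers, and a set New, which holds all others. Only IVP-Normal heifers therefore had both days in 1 set, and in the other groups day and set cannot be told apart. A figure legend of the paper places the D55 blood in winter and the D105 blood in summer. The paper's discussion instead names autumn, spring and summer, and its supplement gives synchronizations in November and in February. The labels give no season, and libraries were not assigned to a synchronization here. The part of season in the changes between days was therefore not tested in any group, IVP-Normal included. The D105 libraries of 604 and 664 stood apart. Of their reads, 38.6% and 36.7% fell on no gene, against 24.3% to 31.1% in the other 21 D105 libraries. The D105 library of heifer 637 (IVP-LOS) had the lowest scaling factor, 0.856. Levels are given as counts scaled to library size (CPM) with TMM factors, and they serve to compare libraries, not genes with each other, since gene lengths were not used. In whole leukocytes, fewer cells of a type and less RNA per cell cannot be told apart.

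All 11 markers of T cells were detected on both days in every group, and their summed level was 1081 to 2533 CPM on D55 and 1237 to 2629 CPM on D105. B cells, monocytes, neutrophils and NK cells were present as well, with summed marker levels on D55 of 2056 to 4875, 829.7 to 5735, 355.1 to 1452 and 166.5 to 476.5 CPM. Several of the 10 genes are also made outside T cells, such as *CD274*, *IDO1*, *IL10* and *TGFB1* in myeloid cells, and the libraries do not tell the source.

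The first question was whether these genes differed between D55 and D105. Over the 23 heifers, *CTLA4*, *IL2RA*, *CD274* and *FOXP3* were higher on D105, and none of the 10 was called lower. The median within-heifer ratio of D105 to D55 was 1.97 for *CTLA4*, 1.85 for *IL2RA*, 1.36 for *FOXP3* and 1.27 for *CD274*. These 4 of 10 passed edgeR's quasi-likelihood test at a false discovery rate (FDR, Benjamini-Hochberg over 15339 genes) of 0.05 with treatment as a term. This test had no heifer term, so both libraries of a heifer entered as independent. Over all genes tested, 20.4% passed in either direction with 12.6% higher and 7.78% lower. The median log2 change was 0.23 for the 10 genes and -0.01 for all genes. Of all genes, 1940 were higher and 1194 lower with TMM scaling, and 1581 were higher and 1964 lower with upper-quartile scaling. Each of the 10 genes had the same direction under both scalings, although *FOXP3* was called only with the former.

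*FOXP3*, the transcription factor of regulatory T cells, was measured with 67 to 318 reads per library. In AI heifers its level on D55 was 4.44 to 10.4 CPM (median 6.96), and on D105 it was 4.86 to 11.7 CPM (median 9.56). In IVP-Normal heifers it was 3.34 to 7.58 CPM (median 5.83) on D55 and 4.12 to 9.195 CPM (median 7.62) on D105. In IVP-LOS heifers it was 5.94 to 10.02 CPM (median 7.05) on D55 and 3.58 to 12.9 CPM (median 8.92) on D105. The ranges of the days overlapped in every group, but single heifers moved together. The level was higher on D105 in 8 of 8 AI, 6 of 6 IVP-Normal and 6 of 9 IVP-LOS heifers. The exceptions were 604 (10.02 to 5.73 CPM), 664 (7.19 to 3.58 CPM) and 637 (9.501 to 8.875 CPM). Over all heifers the log2 change was 0.35 ± 0.12 (SE, n = 23; edgeR quasi-likelihood FDR = 0.0325). With upper-quartile scaling the change was 0.31 and the FDR of the same test 0.0528. In the RefSeq table of the newer assembly ARS-UCD2.0, *FOXP3* overlaps *CCDC22* and *PPP1R3F*. Whether the counting used strand is not stated in the sources used here, so its reads are uncertain to that extent.

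*IL2RA* encodes the alpha chain of the interleukin-2 receptor, which regulatory T cells carry and other T cells gain on activation. In AI heifers its level was 16.8 to 79.2 CPM (median 24.8) on D55 and 26.3 to 93.75 CPM (median 60.2) on D105. In IVP-Normal heifers it was 14.7 to 33.45 CPM (median 25.96) on D55 and 23.9 to 79.7 CPM (median 51.6) on D105. In IVP-LOS heifers it was 12.5 to 44.3 CPM (median 25.96) on D55 and 22.0 to 152 CPM (median 38.5) on D105. Again the ranges overlapped while nearly every heifer moved the same way, with a higher level on D105 in 22 of 23. The exception was 663 (IVP-LOS), with 44.3 CPM on D55 and 42.2 CPM on D105. The largest ratio, 5.42, was that of heifer 637. Over all heifers the log2 change was 0.999 ± 0.192 (SE, n = 23; edgeR quasi-likelihood FDR = 0.000108).

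*CTLA4*, the inhibitory counterpart of *CD28*, had the smallest p-value of the 10 genes, at rank 361 of 15339. In AI heifers its level was 5.999 to 11.8 CPM (median 7.71) on D55 and 9.24 to 18.97 CPM (median 13.1) on D105. In IVP-Normal heifers it was 4.38 to 17.5 CPM (median 5.02) on D55 and 6.24 to 18.7 CPM (median 11.9) on D105. In IVP-LOS heifers it was 4.52 to 11.1 CPM (median 7.07) on D55 and 7.59 to 19.4 CPM (median 14.2) on D105. The days overlapped in each group. On D105 the level was higher in 21 of 23 heifers, and in the other two, 604 (11.1 and 10.95 CPM) and 609 (11.8 and 11.6 CPM), it was nearly the same on both days. The log2 change was 0.86 ± 0.14 (SE, n = 23; edgeR quasi-likelihood FDR = 5.15e-06).

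*CD274* encodes PD-L1, the ligand through which other cells engage PD-1. In AI heifers its level was 19.4 to 46 CPM (median 23.1) on D55 and 17.6 to 96.6 CPM (median 41.7) on D105. In IVP-Normal heifers it was 18.9 to 29.8 CPM (median 24.5) on D55 and 20.98 to 44.7 CPM (median 39.1) on D105. In IVP-LOS heifers it was 19.4 to 57.4 CPM (median 25.1) on D55 and 18.3 to 88.65 CPM (median 34.6) on D105. *CD274* was the least uniform of the 4 genes. It was higher on D105 in 6 of 8 AI, 6 of 6 IVP-Normal and 5 of 9 IVP-LOS heifers, with ratios from 0.603 (heifer 663) to 4.06 (heifer 609). The log2 change was 0.59 ± 0.17 (SE, n = 23; edgeR quasi-likelihood FDR = 0.0111).

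**Figure D1:**
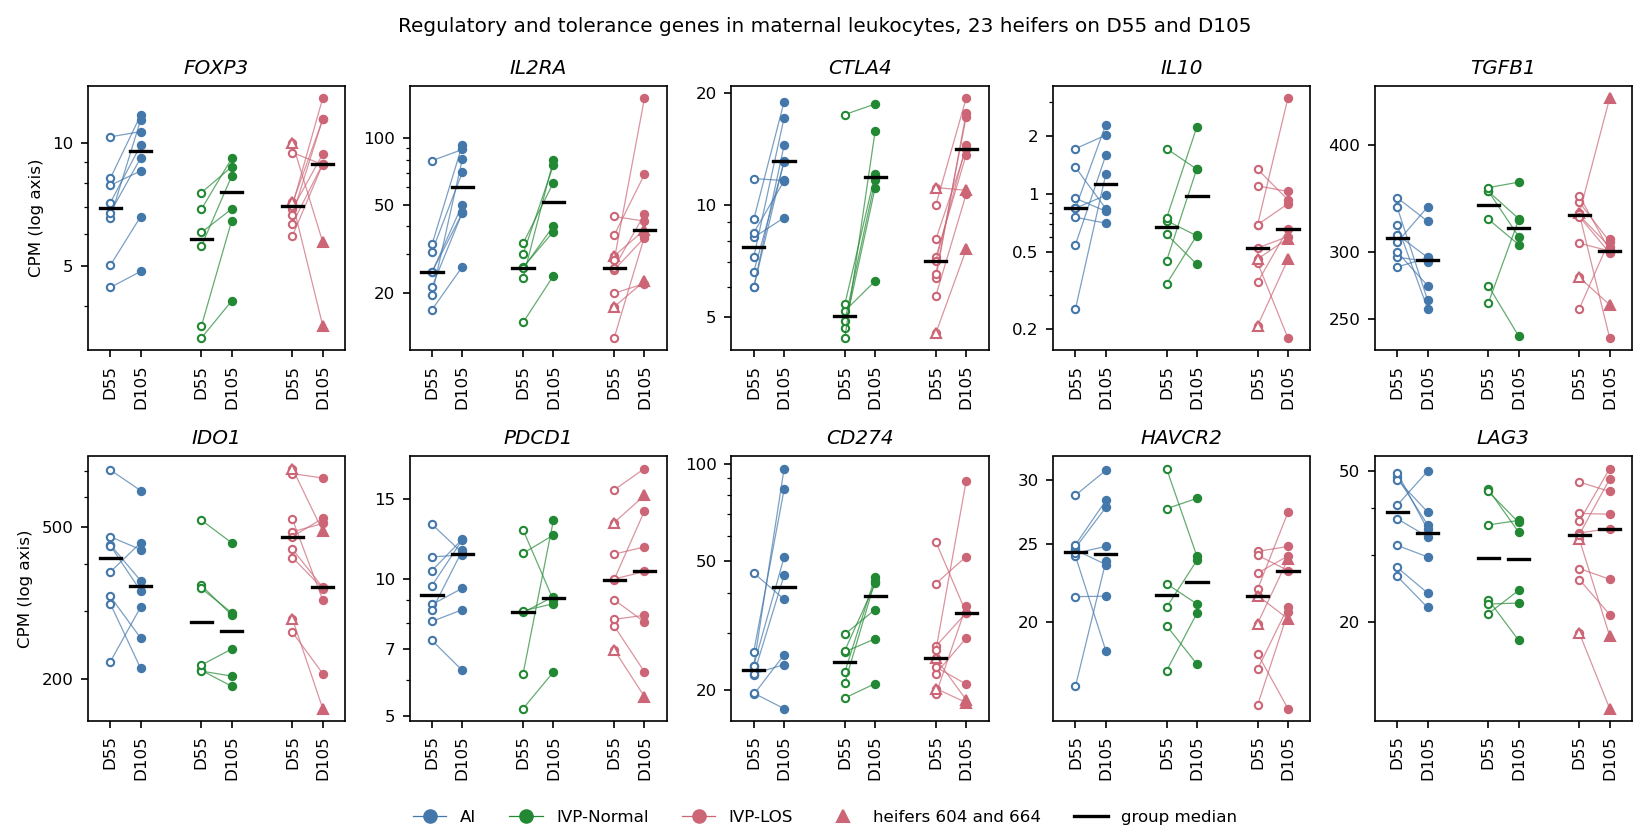
Level of each of the 10 genes in every library, as TMM-scaled CPM on a log axis, by treatment group and day. Points joined by a line are the 2 libraries of a heifer (open on D55, filled on D105), black bars are group medians and triangles are heifers 604 and 664. The lines of CTLA4 and IL2RA point upwards in 21 and 22 of 23 heifers, and those of IDO1 point downwards in 18.

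The other 6 genes did not pass the test between days. *IL10*, which encodes an anti-inflammatory cytokine, had only 4 to 63 reads per library, so its levels carry a wide counting error. It ranged from 0.207 to 1.725 CPM on D55 (median 0.694) and from 0.1785 to 3.16 CPM on D105 (median 0.891), and was higher on D105 in 14 of 23 heifers. Its log2 change was 0.53 ± 0.24 (SE, n = 23; edgeR quasi-likelihood FDR = 0.115). *TGFB1*, which encodes the cytokine TGF-beta 1, was 257.1 to 356.8 CPM on D55 (median 327.6) and 237.4 to 454.9 CPM on D105 (median 300.9), with a log2 change of -0.06 ± 0.05 (SE). It was lower on D105 in 17 of 23 heifers. *IL10* overlaps *LOC104974370*, and *TGFB1* overlaps *HNRNPUL1* and *CCDC97*, in the newer assembly, so their reads are uncertain in the way of *FOXP3*.

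*IDO1*, which encodes the first enzyme of tryptophan breakdown, was 209.2 to 711.3 CPM on D55 (median 415.5) and 166.8 to 671.5 CPM on D105 (median 339.5). The spread between heifers was wide, but 18 of 23 heifers were lower on D105. The log2 change was -0.19 ± 0.15 (SE, n = 23; edgeR quasi-likelihood FDR = 0.396), and with the heifer as a block it was -0.20 ± 0.06 (FDR = 0.0116), which passed. *IDO1* was the only one of the 10 genes whose call the block changed over all heifers.

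The inhibitory receptors of T cells did not differ by day in the test either. *PDCD1*, which encodes PD-1, had a median of 9.01 CPM on D55 (5.18 to 15.7) and 10.4 CPM on D105 (5.50 to 17.55). *HAVCR2*, which encodes TIM-3, had a median of 22.3 CPM on D55 (15.8 to 31.0) and 23.8 CPM on D105 (15.6 to 30.9). *LAG3*, whose product binds MHC class II, had a median of 34.4 CPM on D55 (18.7 to 49.5) and 34.55 CPM on D105 (11.9 to 50.8). Their log2 changes were 0.11 (95% interval -0.12 to 0.34), 0.06 (-0.08 to 0.19) and -0.11 (-0.37 to 0.15). A higher level on D105 was seen in 17, 15 and 7 of 23 heifers. The interval of PD-1 thus did not overlap that of *CTLA4*, 0.59 to 1.12, although the difference between these 2 genes was not tested.

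**Figure D2:**
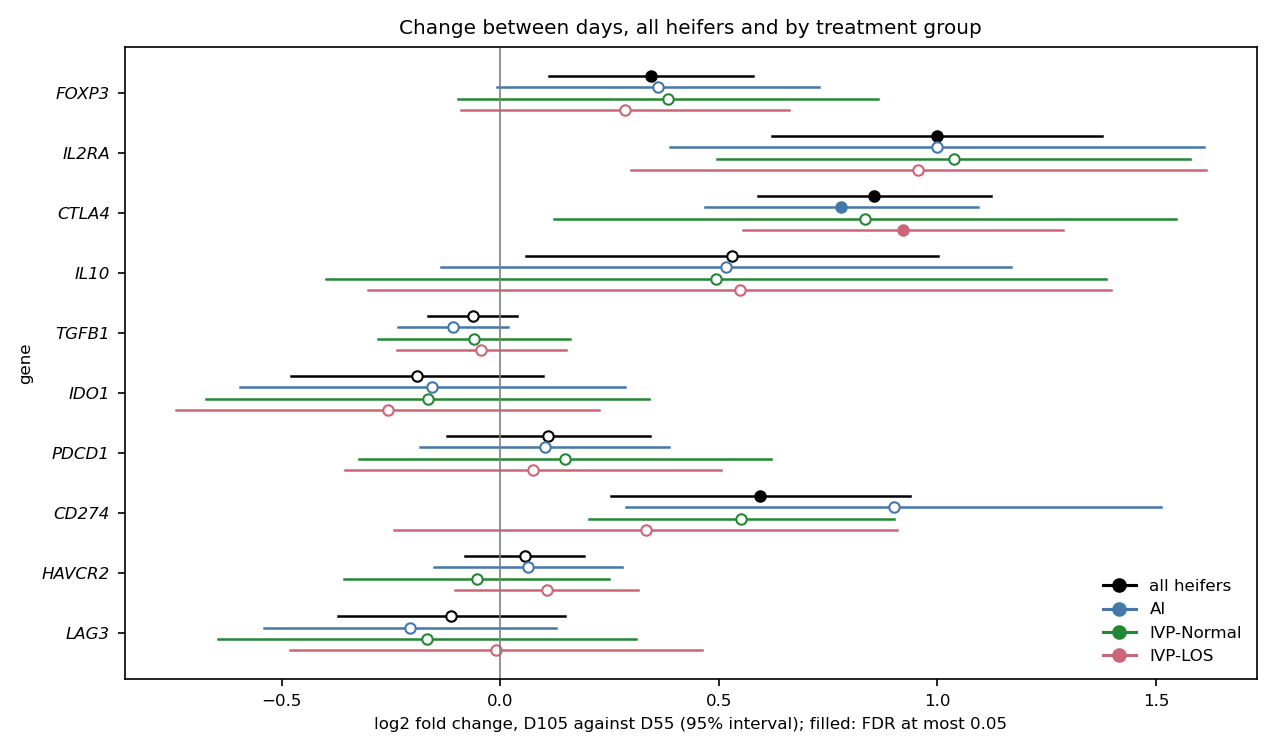
Log2 fold change of D105 against D55 for each gene, with its 95% interval, over all 23 heifers and within each treatment group. Filled points have an FDR of at most 0.05 in edgeR's quasi-likelihood test. CTLA4 was filled over all heifers (0.86), in AI (0.78) and in IVP-LOS (0.92).

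Markers of other cells moved between the days too. None of the 11 T cell, 7 B cell or 5 NK cell markers tested passed, whereas 6 of 6 neutrophil markers (median log2 change 2.57) and 3 of 6 monocyte markers were higher on D105 in edgeR's quasi-likelihood test. Of all genes, 12.6% were higher and 7.78% lower in that test. At an unadjusted p under 0.05 there was 1 marker in each of the T cell, B cell and NK cell lists, against 4959 of all 15339 genes. The monocyte markers called were *CD14* (log2 change 0.75 ± 0.25, SE), *CD163* (0.80 ± 0.30) and *CD68* (0.97 ± 0.20), and the receptor genes *CXCR1* (4.18 ± 0.56) and *CXCR2* (3.59 ± 0.44) were among the neutrophil markers. The summed neutrophil markers were 355.1 to 1452 CPM on D55 and 300.5 to 12170 CPM on D105. Of the platelet markers, 1 of 5 was higher (*ITGA2B*, 0.31 ± 0.11), although the median log2 change of this list was -0.19. *PF4* (-0.19), *PPBP* (-0.19) and *TUBB1* (-0.26) had negative values and *GP9* (0.29) a positive one, none of them called. Of the erythroid markers, 0 of 3 were called, with 1 at an unadjusted p under 0.05. The part of neutrophils and monocytes in the changes of the 10 genes was not tested.

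The level of each gene was also set against *CD3D*, *CD3E* and *CD3G*, which all T cells share, with no test. From the log2 CPM of the gene (pseudocount 0.1), the mean log2 CPM of the CD3 genes was subtracted, a ratio to their geometric mean. The mean log2 change of this ratio from D55 to D105 was 0.90 ± 0.55 (SD, n = 23) for *CTLA4*, 0.95 ± 0.71 for *IL2RA*, 0.34 ± 0.34 for *FOXP3* and 0.51 ± 0.85 for *CD274*. For *CTLA4*, *IL2RA* and *FOXP3* the ratio was higher in 22 of 23 heifers, and for *CD274* in 16. Set against all 11 T cell markers in the same way, *CTLA4* was higher in 23, *IL2RA* in 22, *FOXP3* in 20 and *CD274* in 16 of 23 heifers. For *LAG3* (-0.13 ± 0.26) and *IDO1* (-0.19 ± 0.35) the ratio to the CD3 genes was higher in 8 and 9 heifers.

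Within treatment groups, fewer of these genes passed. In AI heifers, 1 of 10 was called, *CTLA4* (log2 change 0.78 ± 0.16, SE; edgeR quasi-likelihood FDR = 0.00376), where 9.95% of all genes were called. *IL2RA* had a log2 change of 0.998 ± 0.311 with an FDR of 0.0514 in that test, *FOXP3* of 0.36 ± 0.19 (FDR = 0.269) and *CD274* of 0.90 ± 0.31 (FDR = 0.0821). With the heifer as a block, 3 of 10 were called in AI heifers by the same test, *IL2RA* (1.06, FDR = 0.00115), *FOXP3* (0.36, FDR = 0.0256) and *CTLA4*. In IVP-Normal heifers, 0 of 10 passed edgeR's quasi-likelihood test, with 2.45% of all genes called and 3 of the 10 at an unadjusted p under 0.05 (13.3% of all genes). There, DESeq2's and edgeR's likelihood ratio tests called 1 each, *IL2RA*. The log2 changes in this group were 1.04 ± 0.28 for *IL2RA*, 0.83 ± 0.36 for *CTLA4*, 0.38 ± 0.25 for *FOXP3* and 0.55 ± 0.18 for *CD274*. With the block, 2 were called in this group, *IL2RA* (0.96, edgeR quasi-likelihood FDR = 0.0047) and *CTLA4* (0.96, FDR = 0.0273).

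In IVP-LOS heifers, 1 of 10 was called, *CTLA4* (0.92 ± 0.19, SE; edgeR quasi-likelihood FDR = 0.0492), at rank 26 where 0.251% of all genes were called. *IL2RA* had a log2 change of 0.96 ± 0.34, *FOXP3* of 0.29 ± 0.19 and *CD274* of 0.33 ± 0.29, and none of these passed. Without heifer 637 the log2 change was 0.57 ± 0.26 for *IL2RA* and 0.04 ± 0.26 for *CD274*. That of *FOXP3* was 0.53 ± 0.13 without 604 and 664 and did not pass (edgeR quasi-likelihood FDR = 0.148). The call of *CTLA4* was lost without heifer 637, at a log2 change of 0.92 (FDR = 0.0990 in the same test), and with upper-quartile scaling, at 0.89 (FDR = 0.0502). It held with the heifer as a block (FDR = 0.0125 in the same test) and by the likelihood ratio tests of edgeR (FDR = 0.00193) and DESeq2 (FDR = 0.000594).

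An interaction term tested directly if treatment groups differed in the change between days. None of the 10 genes passed in any of the 3 contrasts of edgeR's quasi-likelihood test (0.0% of 16487 genes called), and none had an unadjusted p under 0.05, as 2.83% of all genes did for IVP-Normal against AI, 4.9% for IVP-LOS against AI and 1.22% for IVP-LOS against IVP-Normal. The likelihood ratio tests of edgeR and DESeq2 called none of the 10 either. *CD274* had the difference of the largest size, with a log2 value of -0.57 for the change in IVP-LOS minus that in AI heifers (95% interval -1.36 to 0.21), and of -0.24 (-1.09 to 0.62) for IVP-LOS minus IVP-Normal. Between IVP-LOS and AI, the difference was 0.14 for *CTLA4* (-0.49 to 0.77), -0.05 for *IL2RA* (-0.94 to 0.83) and -0.08 for *FOXP3* (-0.63 to 0.47). Between IVP-Normal and AI it was 0.06 for *CTLA4* (-0.64 to 0.76), 0.05 for *IL2RA* (-0.93 to 1.03), 0.03 for *FOXP3* (-0.58 to 0.64) and -0.34 for *CD274* (-1.21 to 0.54). With the heifer as a block, none of the differences passed either, with values for IVP-LOS against AI of 0.13 ± 0.24 (SE) for *CTLA4*, -0.30 ± 0.29 for *IL2RA*, -0.12 ± 0.22 for *FOXP3* and -0.50 ± 0.32 for *CD274*.

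The treatment groups were then compared on each day. On D55, 0 of 10 genes passed edgeR's quasi-likelihood test in each of the 3 comparisons (0.0% of all genes called in each). At an unadjusted p under 0.05 there were 0 for IVP-Normal against AI (9.92% of all genes), 0 for IVP-LOS against AI (7.74%) and 2 for IVP-LOS against IVP-Normal (5.19%). The 2 were *IDO1* and *FOXP3*. *IDO1* was 264.5 to 711.3 CPM in IVP-LOS (median 471.4) and 209.2 to 520.8 CPM in IVP-Normal heifers (median 280.8), with AI between them (median 413.7). The ranges overlapped, and the log2 difference was 0.63 ± 0.25 (SE, n = 9 and 6; edgeR quasi-likelihood FDR = 0.839). For *FOXP3* the log2 difference was 0.44 ± 0.19 (FDR = 0.839 in the same test). The markers of T cells, NK cells, monocytes and B cells were compared in the same way, with a median log2 difference of 0.30 for T cells (2 of 11 at an unadjusted p under 0.05), 0.43 for NK cells (0 of 5), 0.47 for monocytes (1 of 6) and -0.34 for B cells (2 of 7), none of them called. Their part in the differences of *IDO1* and *FOXP3* was not tested. For IVP-Normal against AI the largest difference of the 10 genes was that of *IDO1* (-0.43 ± 0.25), and for IVP-LOS against AI that of *IL10* (-0.50 ± 0.36).

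On D105, 0 of 10 passed in the 3 comparisons as well (0.0% of all genes called in each). None had an unadjusted p under 0.05, as 9.57% of all genes did for IVP-Normal against AI, 5.76% for IVP-LOS against AI and 3.24% for IVP-LOS against IVP-Normal. *IDO1* again had its lowest median in IVP-Normal heifers (266.3 CPM, 190.9 to 454.1), against 350.3 CPM in AI (212.7 to 622.4) and 346.9 CPM in IVP-LOS (166.8 to 671.5). The groups overlapped, with log2 differences of -0.41 ± 0.23 for IVP-Normal against AI and 0.53 ± 0.28 for IVP-LOS against IVP-Normal. For IVP-Normal against AI, the median log2 difference of the markers was -0.31 for T cells (6 of 11 at an unadjusted p under 0.05), -0.24 for NK cells (0 of 5), -0.69 for monocytes (2 of 6) and 0.47 for B cells (3 of 7), with none called, and their part was not tested. IVP-Normal libraries are of the set New on D105 and the others of BACKUP, so group and set cannot be told apart here. For IVP-LOS against AI the largest difference was that of *IL10* (-0.48 ± 0.41). The likelihood ratio tests of edgeR and DESeq2 called none of the 10 genes on either day. These comparisons share the libraries of each group and are not independent of each other.

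Heifers 604 and 664 were compared with the other 21 on each day. On D55 none of the 10 genes was called by edgeR's quasi-likelihood test (0.0179% of all genes called), and 1, *IL10*, had an unadjusted p under 0.05 (4.72% of all genes). Of *IL10*, 604 had 0.207 CPM (5 reads) and 664 had 0.460 CPM (11 reads), against 0.254 to 1.725 CPM in the others, with a log2 difference of -1.27 ± 0.61 (SE; FDR = 0.947). The likelihood ratio tests of edgeR and DESeq2 called none of the 10. *FOXP3* was not low in the pair on D55, with 10.02 CPM in 604 and 7.19 CPM in 664 against a median of 6.77 CPM (log2 difference 0.38 ± 0.27). *LAG3* was 33.1 CPM in 604 and 18.7 CPM in 664, against 21.1 to 49.5 CPM in the others.

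On D105, 2 of the 10 genes, *LAG3* and *FOXP3*, were lower in the pair, where 21.1% of all genes were called and 9.48% were lower. *LAG3* was 18.4 CPM in 604 and 11.9 CPM in 664, and 17.9 to 50.8 CPM in the other 21 (median 35.1). Of the others, 1 lay below 604 and 0 below 664. The log2 difference was -1.15 ± 0.33 (SE, n = 2 and 21; edgeR quasi-likelihood FDR = 0.0187). *FOXP3* was 5.73 CPM in 604 and 3.58 CPM in 664, and 4.12 to 12.9 CPM in the others (median 8.92), with 2 and 0 of the others below. Its log2 difference was -0.95 ± 0.31 (FDR = 0.0345 in the same test). Neither call held with 1 heifer left out of the pair, when the lone library is assumed to vary like the others. Without 604 the log2 differences of *LAG3* and *FOXP3* were -1.49 and -1.31 (edgeR quasi-likelihood FDR = 0.0730 and 0.0858), and without 664 they were -0.88 and -0.66 (FDR = 0.239 and 0.344).

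*CD274* was low in both heifers, at 18.7 and 18.3 CPM against 17.6 to 96.6 CPM (median 36.3), with a log2 difference of -1.195 ± 0.516 (SE; edgeR quasi-likelihood FDR = 0.0945). *CTLA4* (-0.59 ± 0.28) and *IL2RA* (-0.93 ± 0.53) did not pass either. *IL10* was 0.459 CPM in 604 (8 reads) and 0.588 CPM in 664 (11 reads), with 2 of the others below each, and its log2 difference of -1.14 ± 0.70 did not pass. *HAVCR2* lay within the range of the others in both (20.2 and 23.9 CPM). In *TGFB1*, *IDO1* and *PDCD1* the heifers of the pair differed from each other. *TGFB1* was 454.9 CPM in 604, above all 21 others (237.4 to 362.2), and 259.8 CPM in 664. *IDO1* was 487.2 CPM in 604 and 166.8 CPM in 664, the latter below all others (190.9 to 671.5). *PDCD1* was 15.3 CPM in 604 and 5.50 CPM in 664, against 6.24 to 17.55 CPM. For *TGFB1* the log2 difference of the pair was 0.26 ± 0.14 and turned to -0.19 without 604. Without 664 it was 0.60, and *TGFB1* was then called (edgeR quasi-likelihood FDR = 0.0248).

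The markers of other cells moved in the pair on D105 as well. Lower in edgeR's quasi-likelihood test were 5 of 6 neutrophil markers (median log2 difference -3.95), among them *CXCR1* and *CXCR2*, 5 of 7 monocyte markers (-2.56), among them *CD14* and *CSF1R*, and, of 11 T cell markers, 1, *CD3D* (-0.89). Higher were 4 of 6 platelet markers (2.08), among them *PF4*, 3 of 7 B cell markers (0.68), and 1 of 3 erythroid markers, *HBB*. Of 5 NK cell markers, 0 passed, also at an unadjusted p under 0.05. The median log2 difference of the 11 T cell markers was -0.57. At an unadjusted p under 0.05 there were 5 of these 11, against 6305 of all 16841 genes. The summed T cell markers were 1737 CPM in 604 and 1262 CPM in 664, against 1237 to 2629 CPM in the others. The summed neutrophil markers were 300.5 and 370.0 CPM, below the 651.4 to 12170 CPM of the others, and the platelet markers were 5825 CPM in 604, above the others (253.9 to 1517). Along with the larger share of reads on no gene, the part of these in the lower *LAG3* and *FOXP3* was not tested.

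**Figure D3:**
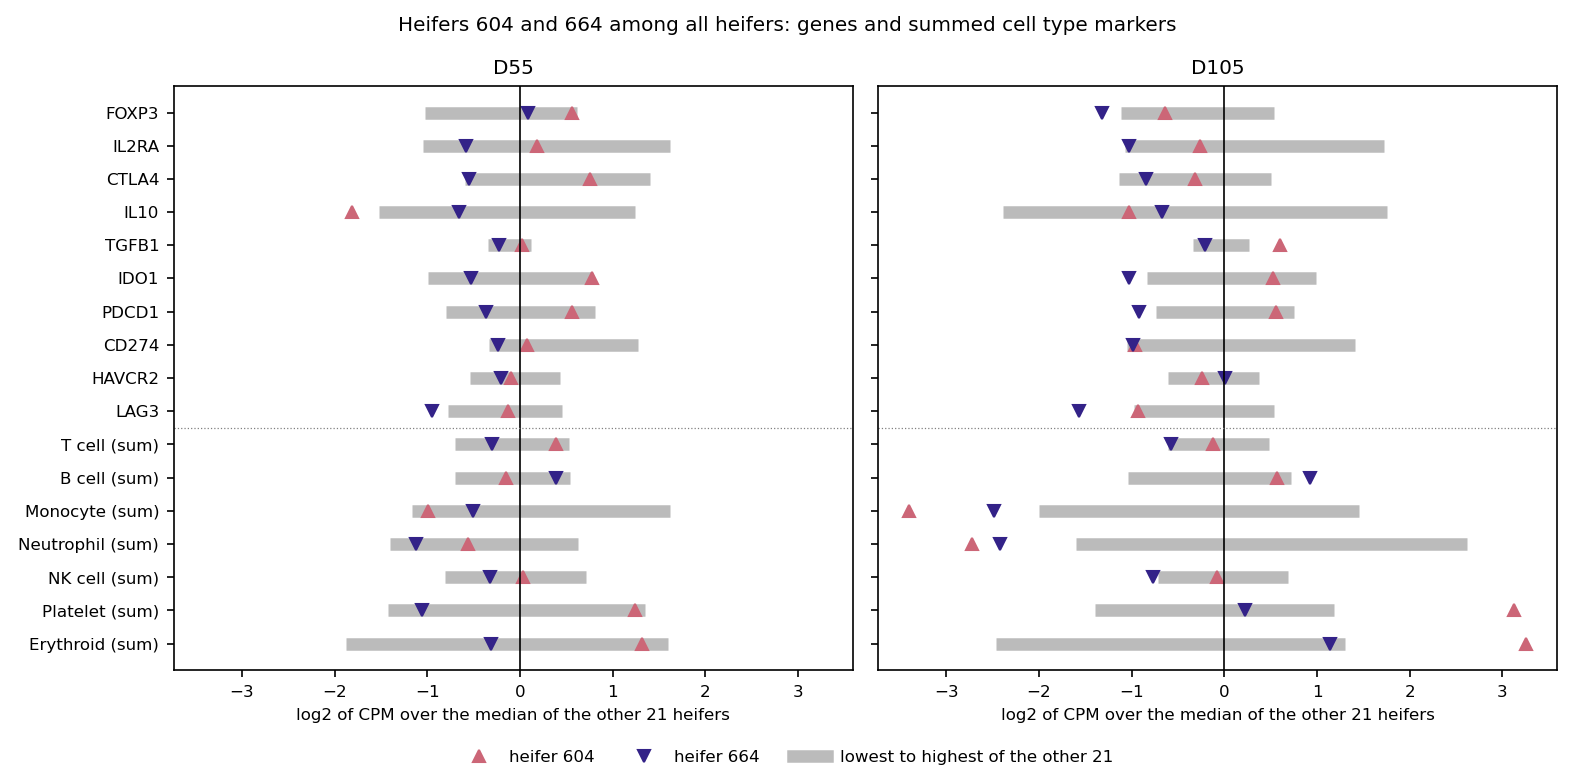
Heifers 604 and 664 on D55 and D105 for each gene and for the summed markers of 7 cell types, as log2 of the CPM over the median of the other 21 heifers, whose range is the grey bar. On D105, 664 lay below the range of the others for FOXP3, IDO1, PDCD1 and LAG3, and 604 lay above it for TGFB1. The neutrophil and monocyte sums of both lay below the range.

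Leaving out both heifers did not end any call between the days over all heifers, where 4 of the 10 genes were still called. This was also so without 637 and without all 3 heifers.

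Other genes of the same pathways were counted between the days over all heifers. Of 20 other regulatory T cell genes, 4 were higher and 3 lower on D105 in edgeR's quasi-likelihood test (median log2 change 0.06). Of all genes tested, 12.6% were higher and 7.78% lower. *STAT5B*, which carries the interleukin-2 signal, was higher (0.41 ± 0.08, FDR = 0.00026), as was *ICOS*, a costimulatory receptor of the *CD28* family (0.35 ± 0.09, FDR = 0.00416). Lower were *IL2RB*, the beta chain of the interleukin-2 receptor (-0.36 ± 0.08, FDR = 0.000758), and *LRRC32*, which holds latent TGF-beta on the cell surface (-0.41 ± 0.11, FDR = 0.00386). The alpha chain gene *IL2RA* and the beta chain gene *IL2RB* thus went in opposite directions. The gamma chain gene *IL2RG* (0.09 ± 0.04), named here after its value was seen, did not pass. The others called were *ENTPD1* (0.58 ± 0.16), whose product degrades extracellular ATP, and the transcription factor *BACH2* (0.33 ± 0.12), both higher, and the chemokine receptor *CCR8* (-0.36 ± 0.11), lower.

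Among 10 genes of B7 and *CD28* costimulation, 4 were higher and 1 lower (median 0.07), against 12.6% and 7.78% of all genes. *CD28*, the receptor that *CTLA4* counteracts, was higher (0.40 ± 0.10, edgeR quasi-likelihood FDR = 0.00267). Of their shared ligands, *CD80* was higher (0.30 ± 0.09, FDR = 0.00857 in the same test) and *CD86* lower (-0.22 ± 0.07, FDR = 0.0288). *TNFSF9*, the ligand of the costimulatory receptor 4-1BB, was higher (0.78 ± 0.20). Of 13 other inhibitory receptors and ligands, 1 was higher and 0 lower, *VSIR*, which encodes the checkpoint protein VISTA (0.64 ± 0.17, FDR = 0.00542 in the same test). The other PD-1 ligand, *PDCD1LG2*, which lies next to *CD274*, had a log2 change of 0.11 ± 0.08 and did not pass.

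Of 19 genes of IL-10 and TGF-beta signalling, 5 were higher and 0 lower (median 0.06), against 12.6% and 7.78% of all genes. *IL10RB*, a chain of the IL-10 receptor, had the smallest FDR (0.44 ± 0.05, edgeR quasi-likelihood FDR = 1.23e-08), followed by *STAT3*, which transmits the IL-10 signal (0.37 ± 0.11, FDR = 0.00957). The kinase *JAK1* (0.13 ± 0.05), the TGF-beta receptor *TGFBR1* (0.19 ± 0.07) and the protease *FURIN* (0.16 ± 0.06) were higher by less. Of 10 genes of tryptophan and kynurenine metabolism, 1 was higher, *KMO*, which encodes a later enzyme of the pathway (0.69 ± 0.22, FDR = 0.0192 in the same test). *IDO2*, the neighbour of *IDO1*, had a log2 change of 0.70 ± 0.28 (FDR = 0.0714).

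Of all genes, 3550 were called for 604 and 664 on D105 (21.1%), 567 without 604 and 725 without 664, and the lists were not recounted with either left out. The median log2 difference of the pair was below 0 in each of these lists apart from tryptophan metabolism. Of the 20 regulatory T cell genes, 5 were lower and 2 higher (median log2 difference -0.48). Of the 19 signalling genes, 7 were lower and 0 higher (-0.31). Over all genes the median was -0.02, and 9.48% were called lower. In the same libraries the markers of monocytes (-2.56) and neutrophils (-3.95) were lower, and those of platelets (2.08) and B cells (0.68) higher. For the T cell markers the median log2 difference was -0.57, with 1 of 11 called lower. The part of cell composition in these lists, and that of reads on no gene, was not tested. The lower regulatory T cell genes were *STAT5B* (-0.94 ± 0.22), *STAT5A* (-0.58 ± 0.14), *ENTPD1* (-1.58 ± 0.47), *IKZF2* (-1.10 ± 0.33) and *CCR4* (-1.15 ± 0.38), and the higher ones were *GPR83* (0.98 ± 0.23) and *TNFRSF4* (0.79 ± 0.26). *IL10RA*, a chain of the IL-10 receptor, was lower as well (-1.46 ± 0.45), and so were *VSIR* (-1.82 ± 0.54), the 1 of 13 inhibitory genes called, and *ICOSLG* (-1.29 ± 0.35), the 1 of 10 costimulation genes called. Of 11 tryptophan genes, *IL4I1* (1.47 ± 0.33) and *SLC7A5* (0.77 ± 0.17) were higher and *AHR* (-1.40 ± 0.46) lower. *ENTPD1*, *STAT5B* and *VSIR*, which were higher on D105 over all heifers, were thus lower in this pair.

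Since the same heifers were bled on both days, it was asked whether a heifer high on one day was high on the other. Over 23 heifers, the log2 CPM (pseudocount 0.1) of 5 of the 10 genes correlated between days at an adjusted p of 0.05 or less, where 37.6% of 15339 genes did (100000 permutations of heifers, Benjamini-Hochberg over all genes). *IDO1* had a Pearson r of 0.852 and a Spearman rho of 0.870 (permutation p = 1e-05 for both, the smallest these permutations can give, and adjusted p = 0.000174 and 0.000266). *LAG3* had an r of 0.794 and a rho of 0.724 (permutation p = 3e-05 and 0.00022, adjusted p = 0.000378 and 0.0023). *PDCD1* (r = 0.675, rho = 0.663), *HAVCR2* (r = 0.576, rho = 0.686) and *IL2RA* (r = 0.555, rho = 0.554) followed, with permutation p of 0.00044, 0.00394 and 0.0055 for r (adjusted p = 0.00273, 0.0147 and 0.0191) and of 0.00082, 0.00044 and 0.00676 for rho (adjusted p = 0.00589, 0.00379 and 0.0269). The median r over all genes was 0.378.

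The other 5 genes did not pass. *FOXP3* had an r of 0.469 (rho = 0.351; permutation p = 0.0246, adjusted p = 0.0617), which was 0.776 without 604 and 664 and 0.252 without the 2 heifers farthest from the D55 median. *CTLA4* had an r of 0.388 (rho = 0.324), *IL10* of 0.385 (rho = 0.443), *TGFB1* of 0.261 (rho = 0.383) and *CD274* of 0.257 (rho = 0.399), with permutation p for r of 0.0669, 0.0707, 0.229 and 0.237 (adjusted p = 0.136, 0.142, 0.351 and 0.360). For rho, the permutation p of *FOXP3*, *CTLA4*, *IL10*, *TGFB1* and *CD274* was 0.103, 0.129, 0.0358, 0.0713 and 0.0594 (adjusted p = 0.200, 0.237, 0.0909, 0.152 and 0.133). For the 5 genes that passed, r without the 2 farthest heifers was 0.816 for *IDO1*, 0.738 for *LAG3*, 0.534 for *PDCD1*, 0.611 for *HAVCR2* and 0.537 for *IL2RA*. In the 17 heifers with a D105 library of the set BACKUP, r was 0.802, 0.791, 0.861, 0.560 and 0.528 for these 5 genes, and in the 6 of the set New it was 0.971, 0.883, 0.320, 0.692 and 0.719. A heifer high in *IDO1* or *LAG3* on D55 was thus mostly high on D105 within either set, whereas for *PDCD1* the relation was weak in the set New. *FOXP3* had an r of 0.235 in BACKUP and 0.857 in New.

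**Figure D4:**
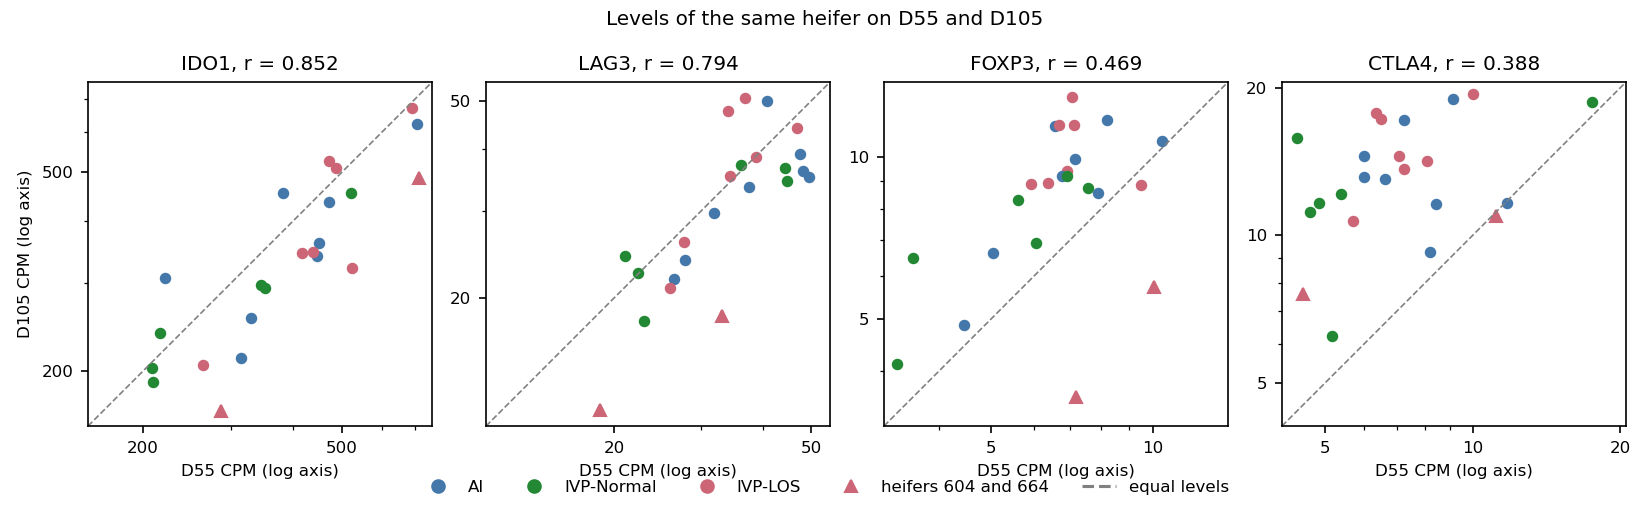
CPM of IDO1, LAG3, FOXP3 and CTLA4 on D55 and D105 in each of the 23 heifers, on log axes, with Pearson r of log2 CPM in the panel titles and a dashed line of equal levels. IDO1 (r = 0.852) and LAG3 (r = 0.794) lie along the line, CTLA4 (r = 0.388) lies mostly above it, and for FOXP3 604 and 664 lie below it.

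The genes were finally set beside each other over the 46 libraries, after the mean of each of the 6 groups was subtracted. These correlations describe libraries that share heifers and cell composition, and no test was made. *FOXP3* was most like *PDLIM2* (r = 0.803), *SPN* (0.793) and *LOC112448796* (0.790), and *LAG3* stood at rank 26 of 15338 genes for *FOXP3* (r = 0.738). *LAG3* itself was most like *KCNIP3* (0.812), *L1CAM* (0.794) and *TSPAN15* (0.787), with *FOXP3* at rank 40. *CTLA4* was most like *CD28* (0.735), its neighbour on the chromosome, then *CD226* (0.725) and *PELI1* (0.722), with *FOXP3* at rank 97 (r = 0.576). *IL2RA* was most like *SAMSN1* (0.874), *IPCEF1* (0.85) and *PIK3R5* (0.801).

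*IDO1* and *PDCD1* formed the other close pair of the 10 genes, with an r of 0.708, *PDCD1* being at rank 42 for *IDO1* and *IDO1* at rank 22 for *PDCD1*. Both had *OASL*, an interferon-induced gene, among their 3 most alike genes (0.844 and 0.801). The others were *PLEKHA6* (0.856) and *RUNX3* (0.817) for *IDO1*, and *SLA2* (0.870) and *SH2D2A* (0.838) for *PDCD1*. *CD274* was most like *IFIT2* (0.881), *APOBEC3Z1* (0.879) and *ZNFX1* (0.851), which include interferon-induced genes such as *IFIT2*. The r of *CD274* with *PDCD1*, the gene of its receptor, was -0.14. *TGFB1* was most like *FERMT3* (0.817), *ZYX* (0.764) and *SQSTM1* (0.732). *IL10* was most like the overlapping *LOC104974370* (0.780), then *TPCN2* (0.747) and *NFIL3* (0.728).

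The 10 genes also differed in how they varied with summed cell type markers. *PDCD1* (r = 0.680), *LAG3* (0.675), *FOXP3* (0.608) and *IDO1* (0.561) varied with the T cell markers. *IDO1* varied most with the NK cell markers (0.754), and *PDCD1* also with the platelet (0.628) and NK cell markers (0.635). *TGFB1* varied most with the platelet markers (0.568), and its r was -0.12 with the monocyte and 0.001 with the neutrophil markers. The D105 library of heifer 604 had both the highest *TGFB1* level (454.9 CPM) and the highest platelet sum (5825 CPM). No r with the platelet markers was computed without this library. *IL10* (0.633), *CD274* (0.573) and *IL2RA* (0.569) varied with the neutrophil markers, which were higher on D105, whereas *CTLA4* (0.183), *FOXP3* (0.396) and *LAG3* (0.445) did so less. With the monocyte markers, r was 0.557 for *IL10*, 0.449 for *CD274* and 0.435 for *IL2RA*. The D105 library of heifer 637 held outlying values of *IL10*, *CD274* and *IL2RA*, and r without this library was not computed. All 10 had a negative r with the B cell markers, from -0.135 for *TGFB1* to -0.674 for *FOXP3*.

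**Figure D5:**
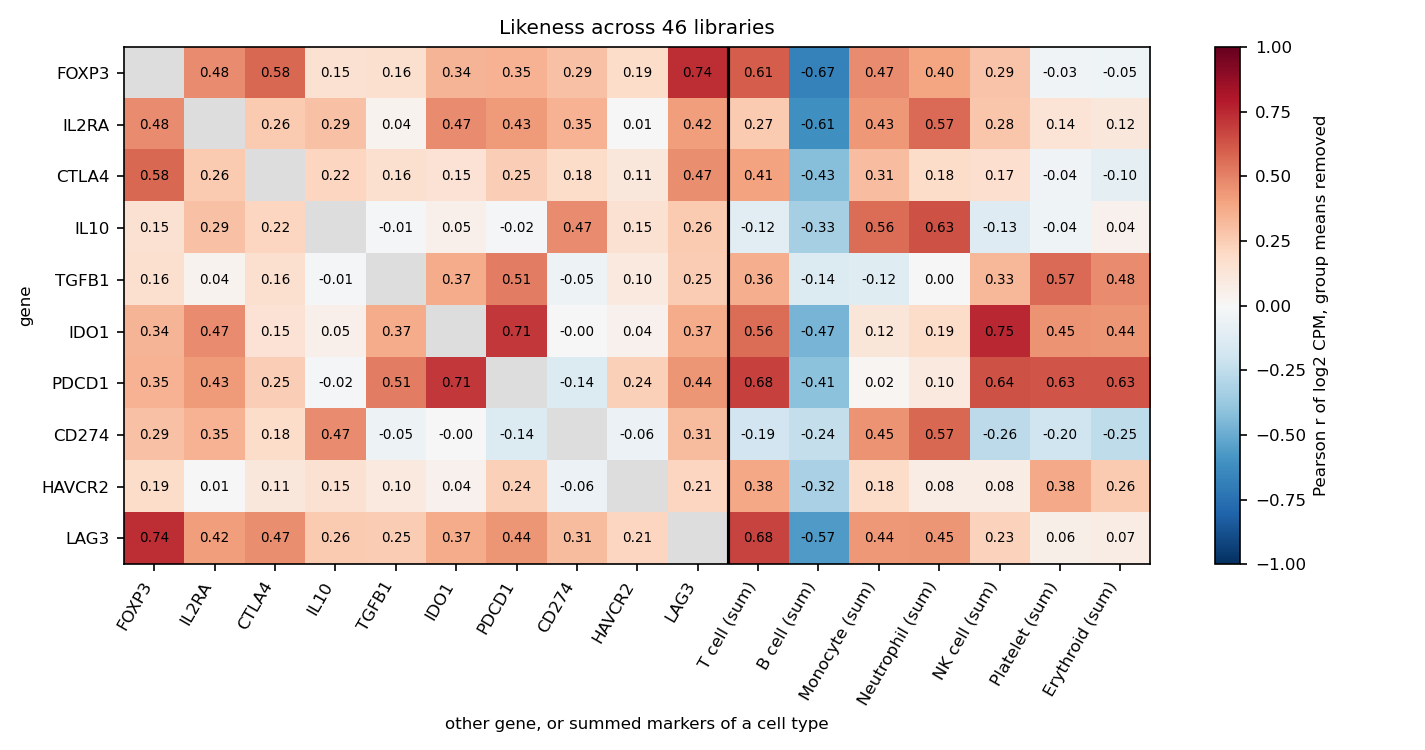
Pearson r of log2 CPM over 46 libraries with group means removed, between the 10 genes (left of the black line) and between each gene and the summed markers of 7 cell types (right of it). FOXP3 with LAG3 (0.74) and IDO1 with PDCD1 (0.71) have the highest values among the 10 genes.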

How the data were processed

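Total RNA of leukocytes from the buffy coat was sequenced, and the counts analysed were deposited by the authors as reads per NCBI gene for 46 libraries (23 heifers, D55 and D105). Per the paper's methods, reads were trimmed, aligned to the assembly ARS-UCD1.2 with HISAT2 2.1.0 and counted with HTSeq in union mode. Whether strand was used is not stated. A second deposited count table, with Ensembl identifiers, was not used here, since its identifiers could not be matched to symbols. Differential expression was computed in R 4.3.3 with the quasi-likelihood F-test of edgeR 4.0.16, TMM scaling and filterByExpr (minimum count 10), at a Benjamini-Hochberg FDR of 0.05 over all genes tested in each of 15 comparisons. The tests were checked on simulated counts. Log2 values of CPM used a pseudocount of 0.1, and SE was derived from log2 fold change and F, with 95% intervals on the normal scale. The same heifer was bled on both days, so the pairing comes from the animals, and the median correlation of days within heifers was 0.378 over 15339 genes. Likelihood ratio tests of edgeR and DESeq2 1.42.0, upper-quartile scaling, no filter, the heifer as a block, the share of reads on no gene as a covariate and left-out heifers were alternatives. The main fits between days, and those of the interactions, had no heifer term, so both libraries of a heifer entered as independent. Their SE and p-values mix the spread between heifers with that within them. Within a day each heifer gave 1 library, and the p-values measure the spread between these heifers.

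The 10 genes and the lists of related genes and markers were chosen with earlier results of these data known. All 10 genes passed the filter in every comparison. Of the other lists, up to 4 genes of the smallest FDR per comparison were to be named. Further genes of short counts, the marker genes beyond that and the neighbouring genes were added after their values were seen. Gene neighbours and overlaps were read from the RefSeq table of ARS-UCD2.0 without coordinates. The genes most like *HAVCR2* are not reported here.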

Additional observations from a re-analysis of the deposited data

Results flagged for a closer look

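In 60 groups of libraries (10 genes, 3 treatments and 2 days), 8 values lay far from the rest of their group by Dixon's criterion. Chance meets it in about 1 in 20 groups only if values are normal and independent. Here it was applied to CPM without logs, all 8 values were the highest of their group, and some shared a library. The 8 can therefore not be set against that rate. In IVP-LOS heifers on D105, heifer 637 had 152 CPM of *IL2RA* (the nearest other heifer had 68.75), 3.16 CPM of *IL10* (nearest 1.03) and 88.65 CPM of *CD274* (nearest 51.7). This library also had the lowest TMM scaling factor of the 46. In the same group, heifer 604 had 454.9 CPM of *TGFB1* (nearest 310.1), beside the highest summed platelet markers.

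In IVP-Normal heifers on D55, heifer 669 had 17.5 CPM of *CTLA4* (nearest 5.40) and 1.725 CPM of *IL10* (nearest 0.749). In AI heifers on D55, heifer 590 had 79.2 CPM of *IL2RA* (nearest 33.1), and heifer 546 had 46 CPM of *CD274* (nearest 26.3). The part of these libraries' cell composition in the values was not tested.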

How the results depend on the processing

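The number of the 10 genes called between days over all heifers was 3 to 5 under all alternatives, against 4. Over all comparisons, 91 counts under alternatives were within 1.5 times the reported count and 12 were not. In AI heifers, 1 gene was called, against 3 by edgeR's likelihood ratio test, 3 by DESeq2, 3 with the heifer as replicate block and 2 with the share of reads on no gene as a covariate. In IVP-Normal heifers 0 were called, against 1 by edgeR's likelihood ratio test, 1 by DESeq2 and 2 with the replicate block. In IVP-LOS heifers 1 was called, against 0 with upper-quartile scaling, 0 without heifer 637 and 0 without heifers 604, 664 and 637. For heifers 604 and 664 on D105, 2 were called, against 0 to 1 with either left out. The block left the other 5 of 7 counts within 1.5 times. Leaving out 604, 664 and 637 together, and the block without 604 and 664, were alternatives added after the data were seen.

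Of 368 values of single genes under alternatives, 342 kept their direction and side of the threshold, 8 no longer passed, 14 passed in addition and 4 changed sign. The difference in day change of *IL2RA* between IVP-Normal and AI was -0.0892 with the replicate block. Without 604 and 664, the difference between IVP-LOS and AI was 0.18 for *FOXP3* and 0.0625 for *IL2RA*. For the pair on D105, *TGFB1* was -0.19 to 0.60 with either heifer left out. None of these 4 was called in the reported tests, and the causes of the changes were not tested.

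The counts with the Ensembl table were not run, since its identifiers could not be matched to symbols. Depth limits *IL10* most, with 4 to 63 reads a library. Library set and day cannot be told apart in AI and IVP-LOS heifers, and set and group cannot on D105 where IVP-Normal is compared. The labels give no season, so its part in the changes between days was not tested in any group. A comparison of 2 heifers with 21 rests on 1 pair.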
